A study of Mus musculus with 768 samples.

Results

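Of 253 muscle stem cells from young mice, 94 held at least 1 read of *Ccnd1*, the gene of cyclin D1, and 159 held none. These 2 classes of cells were compared across all other genes within each of 4 young mice. The classes were chosen by the *Ccnd1* counts themselves, so every *Ccnd1* value below is a description and carries no test. The 253 cells are part of 377 cells that passed the authors' quality filter, the other 124 being from 2 old mice.

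The mice carried the Tg:Pax7-nGFP transgene, which puts a nuclear GFP under regulatory sequence of *Pax7*, so that the sort saw cells with an active *Pax7* transgene and no others. Cells were taken from the tibialis anterior, a muscle of the lower leg, of male mice labelled as 2 months old (young, Y4, Y5, Y7 and Y8) or 24 months old (old, O1 and O5), ages from which those in the paper's text differ somewhat. They were frozen after digestion of the muscle, thawed, and sorted for the 10% with the most GFP (nGFP-Hi), and no mouse received any other treatment. The RNA of each cell was separated from its DNA and amplified as full-length cDNA by Smart-seq2, so that each value is a count of reads and not of molecules.

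Cyclin D1 belongs to the D-type cyclins. These proteins bind the kinases Cdk4 and Cdk6, and the complexes phosphorylate the retinoblastoma protein, which then releases the E2F factors that drive genes of DNA synthesis. Their transcription follows mitogens and adhesion, and CDK inhibitors such as p21 and p27 hold the complexes in check. Most muscle stem cells of an uninjured adult muscle are quiescent, that is, outside the cell cycle, and *Ccnd1* is among the genes known to be transcribed as such cells leave quiescence.

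The depth of young cells ran from 102044 to 626142 reads (median 276146), and no 2 of them had identical counts. By the names of the columns, Y7 and both old mice were sequenced on lane 2 and the other young mice on lane 3. *Pax7* was read in 91.5% ± 6.03 (SD, n = 4) of the cells with *Ccnd1* reads and in 92% ± 6.4 (SD, n = 4) of those without, which fits the label of muscle stem cells in both classes. Of the lists of markers of other cells, the defining genes below were at or near 0, while others such as *Dpt* and *Acta2* were read and are given further on. Of the 253 young cells, 0 had a read of *Pdgfra* or *Cdh5*, 1 of *Pecam1* and 1 of *Ptprc*. A count of 0 of 253 cells allows a share of up to 1.19%.

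The share of cells with a *Ccnd1* read was alike in 3 young mice and lower in the fourth. It was 41.7% in Y4 (25 of 60 cells, 95% exact Clopper-Pearson interval 29.1 to 55.1%), 43.2% in Y5 (19 of 44, 28.3 to 59%), 43.2% in Y7 (32 of 74, 31.8 to 55.3%) and 24% in Y8 (18 of 75, 14.9 to 35.3%). The mean was 38% ± 9.38 (SD, n = 4), and Y8 lay below the other mice although its cells were the most deeply sequenced. These intervals cover only the sampling of cells within a mouse, and not the spread between mice. After all cells were thinned to 100000 reads, 92 of the 94 cells still held a *Ccnd1* read, and the mean share was 37.2%. In the old mice 6 of 56 cells of O1 (10.7%) and 4 of 68 cells of O5 (5.88%) held a *Ccnd1* read. Of the young mice only Y7 shared the lane of the old mice.

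The cells with reads were, for the most part, far from the limit that divides the classes. They held between 1 and 569 *Ccnd1* reads with a median of 94.5, or between 4.27 and 2569 reads per 1000000 reads on genes (RPM) with a median of 343 RPM. The lowest, median and highest values were 4.4, 408 and 2569 RPM in Y4, and 8.10, 209 and 1205 RPM in Y5. They were 4.27, 324 and 1383 RPM in Y7, and 5.85, 411 and 1434 RPM in Y8. The 4 mice thus overlapped over nearly their whole range, and the lower share of Y8 did not go with a lower level in its cells that had reads. Just inside the limit were 2 cells with 1 read and 6 with 2 reads, whereas 84 cells had at least 10 reads. Just outside it were the 159 cells at 0. For the drawing of reads alone, a count of 0 allows up to 3 reads, or 4.79 to 29.4 RPM with a median of 10.9. The libraries have no molecular identifiers, so this limit does not cover transcripts lost before sequencing. Whether such loss made some of the counts of 0 was not tested. The 8 cells with 1 or 2 reads therefore cannot be told apart from cells at 0 by counting alone.

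**Figure D1:**
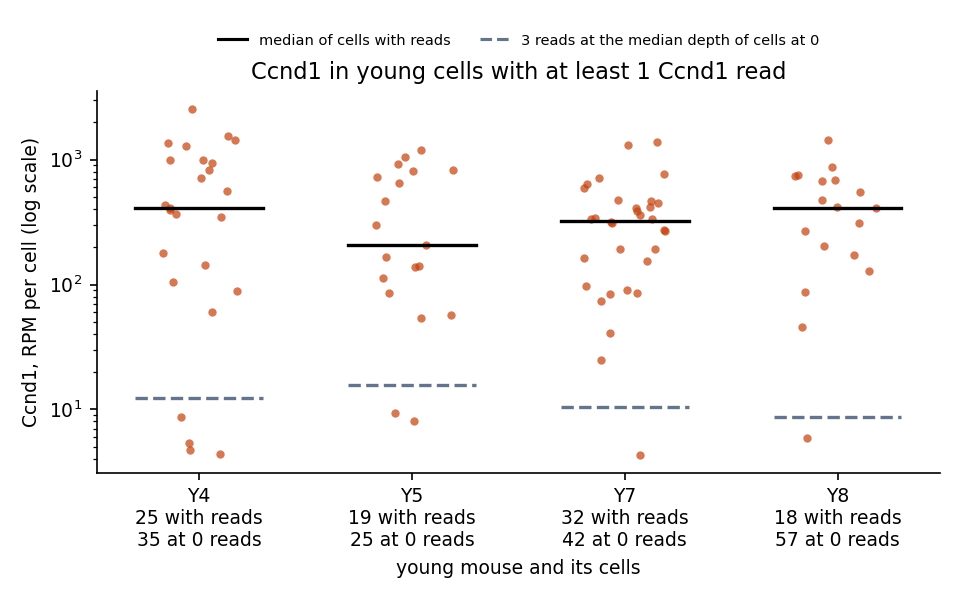
*Ccnd1* in RPM (log scale) in each young cell with at least 1 read, by mouse. Black lines are the medians (408, 209, 324 and 411 RPM) and dashed lines are 3 reads at the median depth of the cells at 0, which lie below all but 8 of the 94 cells.

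*Ccnd1* shares sequence with a neighbour, which touched the definition of the classes. In GRCm38 and GENCODE M21, *Ccnd1* lies on chromosome 7 from 144929931 to 144939925 on the minus strand. *Oraov1*, whose product LTO1 is known as an adaptor in the maturation of an iron-sulphur protein, lies on the plus strand from 144915100 to 144931701. The 2 genes overlap at their 3′ ends over 1771 bases, of which 1100 are in exons of both. Whether the authors counted reads by strand is not given in the sources used here, so reads of the overlap cannot be told apart. *Oraov1* reads were present in 62 of the 94 cells with *Ccnd1* reads (66%) and in 8 of the 159 cells without (5.03%). In 6 cells both genes had the same number of reads, up to 14, and in 10 cells *Ccnd1* reads did not outnumber those of *Oraov1*. *Oraov1* read 115, 54.1, 42.5 and 128 CPM (counts per 1000000 in the summed reads of a class) in the cells with *Ccnd1* reads of Y4, Y5, Y7 and Y8, and 4.11, 18.1, 6.78 and 7.77 CPM in the cells without. The classes did not overlap for *Oraov1*, but as the rule may have counted the same reads this is no finding about *Oraov1*. Genes were therefore also compared without those 10 cells, while the other cells with reads of both genes stayed in their class.

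**Figure D2:**
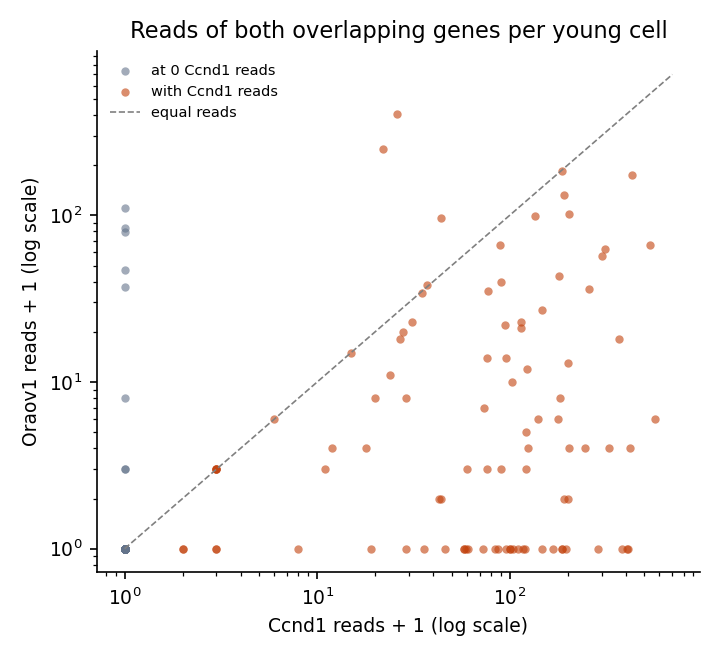
Reads of *Oraov1* against reads of *Ccnd1*, each plus 1 on a log scale, in the 253 young cells. The dashed line marks equal reads, on or above which 10 of the 94 cells with *Ccnd1* reads lie, and the 8 cells at the left edge above 1 are those with *Oraov1* reads only.

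More genes were detected in the cells with *Ccnd1* reads of every young mouse, while their depth was not uniformly higher. Cells with reads had a median of 1960, 2528, 2531 and 1936 genes detected in Y4, Y5, Y7 and Y8, and cells without had 1884, 2014, 2308 and 1779. The mean difference was 243 ± 191 genes (SD, n = 4), higher in 4 of 4 mice, with an exact two-sided sign-flip permutation p of 0.125 over the mice, the smallest that 4 pairs can give. It was 263 ± 175 genes (SD, n = 4) after thinning to 100000 reads and 249 genes over the 3 mice of lane 3. Median reads per cell were 286068, 246876, 259722 and 347194 in the cells with *Ccnd1* reads against 244264, 191388, 286660 and 346183 in the cells without, higher in 3 of 4 mice (exact sign-flip permutation p = 0.375). As a cell with more genes detected is also more likely to hold a read of any single gene, the edgeR and limma fits of the young mice were repeated on 60 pairs of cells, 1 of each class from the same mouse, that differed by at most 50 genes detected. The part of gene number in the results was not tested further.

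**Figure D3:**
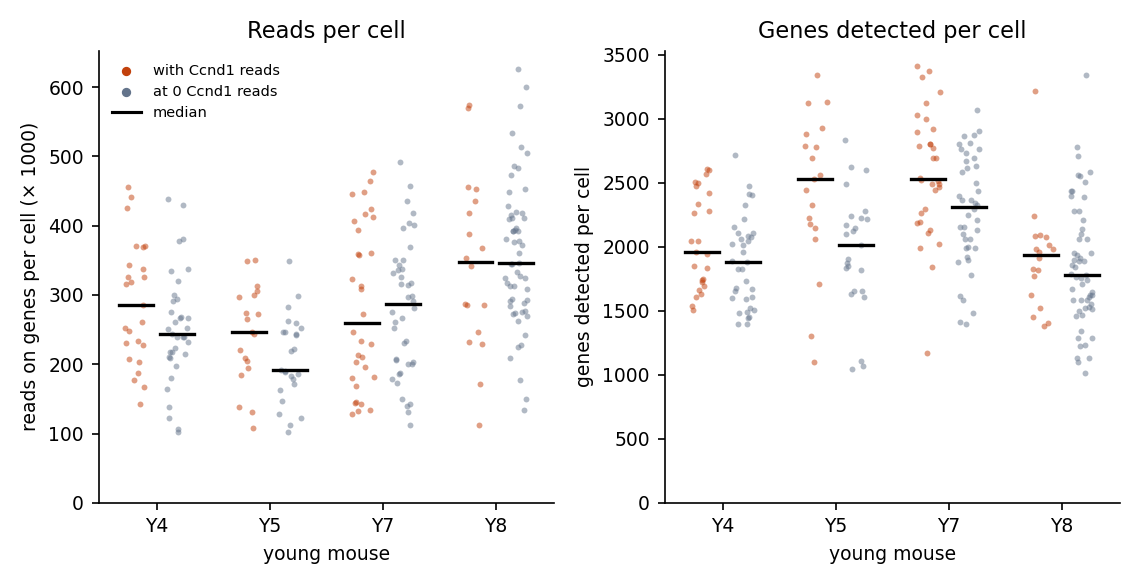
Reads on genes per cell in units of 1000 (left) and genes detected per cell (right) in the cells with (orange) and at 0 (grey) *Ccnd1* reads of each young mouse, with black lines for medians. The median of genes detected is higher in the cells with reads in 4 of 4 mice, by 76 to 514 genes, with wide overlap of single cells.

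No gene passed the test across all genes in the design that pairs the classes within mice. Reads were summed per class and mouse, and 10063 genes were tested with edgeR's quasi-likelihood test with the mouse as a block and Benjamini-Hochberg adjustment. None of them (0%) passed an adjusted p of 0.05 in edgeR, a count of 0, and the smallest adjusted p was 1. At an unadjusted p under 0.05 it had 240 genes (2.38%), 98 higher (0.974%) and 142 lower (1.41%) in cells with *Ccnd1* reads. The median standard error of a log2 fold change over all genes was 1.34. DESeq2 called 162 genes (1.61%), 52 higher and 110 lower, but the median gene it called was read in 5.14% of young cells, against 13.4% over all genes tested. Only 11 of its 162 calls had a read in at least 20% of young cells: higher *Arid5a*, *Egr2*, *Islr*, *Oraov1* and *Wisp1*, and lower *Csrnp1*, *Hmcn2*, *Mcrs1*, *Nop16*, *Rbm27* and *Ugp2*. limma on the mean of log2(RPM + 1) over the cells of a class, which weights each cell equally, called 3 genes (0.0298%), *Oraov1*, *Idh2* and *Sparc*. On the 60 pairs of cells limma called 0 genes, with 467 at an unadjusted p under 0.05, and edgeR called 0 with 157.

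Genes with one direction in all 4 mice were more often lower than higher by summed CPM. Summed CPM was higher in cells with *Ccnd1* reads in 4 of 4 mice for 494 of the 10063 genes (4.91%) and lower in 4 of 4 for 729 (7.24%). By share of cells the balance was the other way. Among 6119 genes read in at least 10% of young cells, 794 (13%) had a larger share of cells with a read in the cells with *Ccnd1* reads in 4 of 4 mice, and 159 (2.6%) a smaller share in 4 of 4. The median log2 fold change over all genes tested was −0.15 in edgeR, 0.10 in limma and −0.00 in limma on the paired cells. A gene's value is best read against these medians.

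Of 7 D-type cyclins and partners, 5 were tested, of which *Ccnd3* was higher and the 4 partners lower in edgeR, and none passed a test. In limma 3 were higher and 2 lower. Over all genes tested, 42.7% had a value above 0 in edgeR and 63.4% in limma. *Ccnd3*, another D-type cyclin, read 577, 208, 218 and 62.6 CPM in the cells with *Ccnd1* reads of Y4, Y5, Y7 and Y8, and 530.5, 253, 119 and 57.3 CPM in those without. The classes overlapped and differed far less than the mice did, with a log2 fold change of 0.21 (SE 0.28). *Ccnd2* was read in 0 of the 94 cells with *Ccnd1* reads, which allows a share of up to 3.19%, and in 1 of the 159 cells without. The kinase gene *Cdk4* read 481, 327, 254 and 61.4 CPM against 403, 362, 217 and 187 CPM, higher in Y4 and Y7 and lower in Y5 and Y8 (log2 fold change −0.30, SE 0.37). By share of cells, *Cdk4* was read in 63.8% ± 21.7 (SD, n = 4) of the cells with *Ccnd1* reads and 47.2% ± 9.09 (SD, n = 4) of those without, the larger share being in the first class in 3 of 4 mice. *Cdk6* was read in 3 and 9 cells (log2 fold change −3.04, SE 2.84). Of the retinoblastoma family, *Rb1* had a log2 fold change of −0.19 (SE 2.09) and *Rbl2* of −1.12 (SE 2.31), and *Rbl1* was below the filter with 1 and 2 cells.

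Among the CDK inhibitors, 1 of 5 tested, the p18 gene *Cdkn2c*, had a higher CPM in 4 of 4 mice, against 4.91% of all genes. *Cdkn2c* read 73.9, 64, 34.3 and 122 CPM in the cells with *Ccnd1* reads and 51, 36.4, 32.8 and 30.1 CPM in those without, with a log2 fold change of 0.85 (SE 0.69, unadjusted p = 0.258, edgeR). A read of *Cdkn2c* was present in 22.4% ± 5.56 (SD, n = 4) of the first class and 11.6% ± 2.63 (SD, n = 4) of the second. In edgeR the fold change of *Cdkn2c* was 0.47 (SE 0.78) without Y8 and 0.29 (SE 1.15) on the paired cells. The p21 gene *Cdkn1a* read 367, 510, 704 and 376 CPM against 430.1, 394, 691 and 615 CPM, with overlapping classes (log2 fold change −0.13, SE 0.23). The p27 gene *Cdkn1b* read 36.4, 27.2, 49.5 and 24.2 CPM against 57, 20.3, 58.4 and 18.3 CPM (log2 fold change −0.01, SE 0.87). *Cdkn1c* (p57) and *Cdkn2d* (p19) had log2 fold changes of −1.93 (SE 1.47) and −1.42 (SE 1.63). *Cdkn2a* was read in 0 of 253 young cells and *Cdkn2b* in 1 and 3 cells of the classes.

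Genes of S phase, G2 and mitosis were scarce in both classes. Of 12 genes of S phase, G2 and mitosis, 3 passed the filter and 4 had no read in any young cell. *Mki67*, the gene of the Ki-67 antigen of cycling cells, was read in 3 of 94 cells with *Ccnd1* reads and 2 of 159 without, and *Top2a*, a topoisomerase of dividing cells, in 2 and 3. The summed level of the 12 genes was 4.85 to 23.9 CPM in the 4 mice with reads and 8.29 to 65 CPM without. Of 21 genes of the step from G1 to S phase, 13 were tested. In edgeR 2 had an unadjusted p under 0.05, both lower, against 1.41% lower over all genes. DESeq2 called 1 gene of this list at its adjusted threshold, lower. In limma 2 had an unadjusted p under 0.05, both lower, against 1.19% lower over all genes, and 2 were lower on the paired cells. *Cdt1*, which licenses replication origins, was read in 0 of the 94 cells with *Ccnd1* reads and in 10 of the 159 without, so that no fold is given. *Myc* is described below. *Pcna*, the sliding clamp of DNA polymerase, read 55.5, 152, 248 and 218 CPM against 71.5, 234, 169 and 158 CPM (log2 fold change 0.01, SE 0.36).

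Markers of muscle stem cells and of their state did not, as summed reads, pass the adjusted threshold of edgeR. *Pax7*, the transcription factor that marks these cells, read 1001, 631, 1045 and 374 CPM against 1035, 575, 655 and 421 CPM (log2 fold change 0.15, SE 0.20). *Myf5*, a myogenic factor, had a log2 fold change of −0.35 (SE 0.40), with 770.1, 654, 254 and 216 CPM against 747, 524, 248 and 832 CPM, and only Y8 stood apart. Without Y8 the value for *Myf5* was 0.13 (SE 0.22). *Myod1*, the myogenic factor of activated stem cells, read 709, 289, 1332 and 1086 CPM against 489.7, 220.4, 1839 and 846 CPM, higher in 3 of 4 mice and lower in Y7 (log2 fold change 0.21, SE 0.22). Its share of cells was larger in 4 of 4 mice, with 68, 47.4, 56.2 and 72.2% in the cells with *Ccnd1* reads of Y4, Y5, Y7 and Y8 and 37.1, 36, 54.8 and 38.6% in the cells without. In limma, *Myod1* had a difference of 1.54 in mean log2(RPM + 1) (SE 0.55, adjusted p = 0.613) that did not pass.

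The genes tied to quiescence and to the niche did not pass either. *Calcr*, a receptor that keeps muscle stem cells quiescent, read 413, 245, 284 and 266 CPM against 291, 325, 282 and 179 CPM (log2 fold change 0.17, SE 0.27). *Spry1*, an inhibitor of receptor tyrosine kinase signalling, read 235, 219.9, 216 and 79.2 CPM against 249, 269, 250.4 and 200.5 CPM, lower in 4 of 4 mice by a log2 fold change of −0.48 (SE 0.32, unadjusted p = 0.179, edgeR). The value for *Spry1* was −0.20 (SE 0.28) without Y8 and −0.01 (SE 0.44) on the paired cells. *Gas1*, a membrane protein of growth arrest, had a log2 fold change of −0.09 (SE 0.33), and *Vcam1*, a cell adhesion molecule, of 0.03 (SE 0.31). *Mmp2*, a matrix protease, read 25.1, 0, 268 and 143 CPM against 123, 63.2, 440.2 and 158 CPM, lower in 4 of 4 mice, and Y5 had no read of it in its 19 cells with *Ccnd1* reads. Its fitted log2 fold change of −2.04 (SE 1.28) changed sign when the mean number of genes detected was a term of the fit. *Col3a1*, a fibrillar collagen, and *Cebpb*, a transcription factor, had log2 fold changes of 0.10 (SE 0.17) and 0.01 (SE 0.19).

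**Figure D4:**
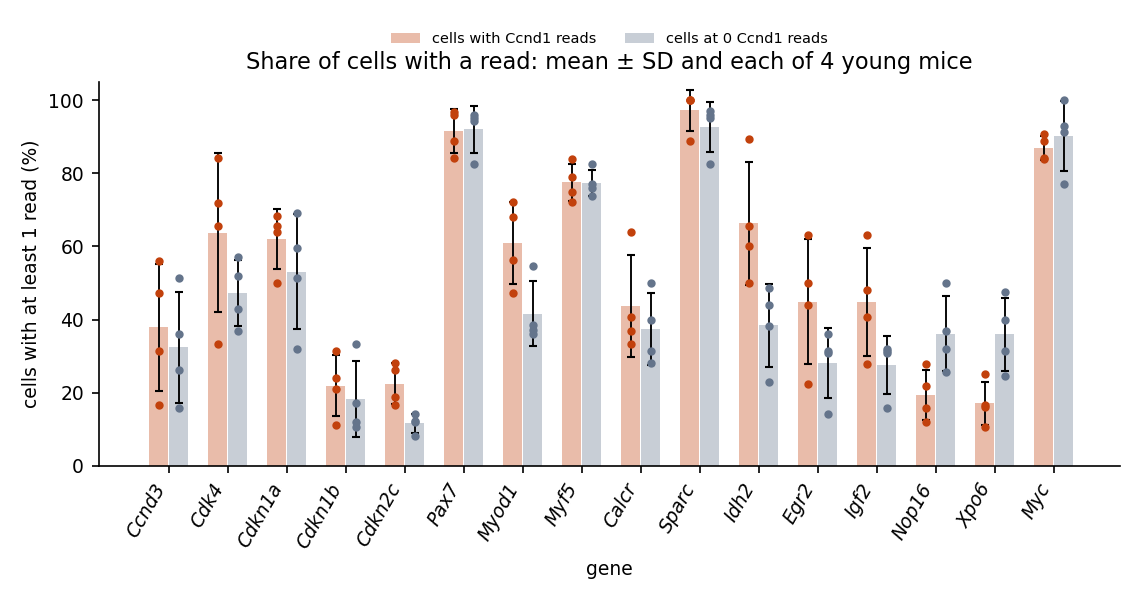
Share of cells with at least 1 read of each gene (%), in cells with (orange) and at 0 (grey) *Ccnd1* reads: bars are means of 4 young mice, error bars SD, points the mice. *Idh2*, *Egr2*, *Igf2*, *Myod1*, *Sparc* and *Cdkn2c* have larger shares in the first class in 4 of 4 mice, and *Nop16* and *Xpo6* smaller ones. Of genes read in at least 10% of young cells, 13% have larger shares in 4 of 4 mice and 2.6% smaller ones. *Egr2*, *Igf2*, *Nop16* and *Xpo6* were chosen for one direction of CPM in 4 of 4 mice.

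The 10 genes with the smallest unadjusted p among those higher in 4 of 4 mice and read in at least 20% of young cells were led by *Egr2* and included *Oraov1*. None passed the adjusted threshold of edgeR. *Egr2*, an early growth response transcription factor (chromosome 10, 67535475 to 67542188), read 318, 773, 174 and 216 CPM in the cells with *Ccnd1* reads of Y4, Y5, Y7 and Y8 against 93.8, 211, 94.7 and 70.1 CPM in those without. It was higher in every mouse, with a log2 fold change of 1.54 (SE 0.29, unadjusted p = 0.00108, adjusted p = 1, edgeR, and adjusted p = 0.00219, DESeq2). Across mice the classes of *Egr2* overlapped, since the level in Y5 without *Ccnd1* reads exceeded that of Y7 with them. *Arid5a*, an RNA-binding protein that stabilises inflammatory transcripts, read 639, 915, 737 and 663 CPM against 339.5, 552, 379 and 460.5 CPM (log2 fold change 0.78, SE 0.19, adjusted p = 0.0141, DESeq2). *Igf2*, the gene of insulin-like growth factor 2, read 137, 149, 65.8 and 133 CPM against 62.8, 42.6, 24.7 and 29.7 CPM (log2 fold change 1.63, SE 0.49, unadjusted p = 0.0133, edgeR).

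The other genes of this direction were of varied function. *Wisp1*, a matricellular protein of the CCN family, read 404, 352, 292 and 270.5 CPM against 43.9, 161, 240.3 and 41.4 CPM with a log2 fold change of 1.84 (SE 0.55). *Islr*, a protein with leucine-rich repeats, read 249, 516, 368 and 283 CPM against 99.5, 425, 108 and 72.4 CPM, with a small difference in Y5 (log2 fold change 1.34, SE 0.35), and its gene overlaps *Islr2*. *Mapre3*, a protein that binds microtubule ends, had a log2 fold change of 1.21 (SE 0.32). The X-linked genes *Klhl13*, an adaptor of a ubiquitin ligase, and *Maged1*, a MAGE family adaptor protein, had log2 fold changes of 1.01 (SE 0.29) and 0.79 (SE 0.24). *Klhl13* was even across the mice, with 252, 230.4, 231 and 268 CPM in the cells with *Ccnd1* reads and 144, 122, 97.5 and 129 CPM in those without.

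*Idh2* and *Sparc* were, beside *Oraov1*, the genes that limma called. *Idh2*, the mitochondrial isocitrate dehydrogenase (chromosome 7, 80094846 to 80115392), read 556, 1076, 485 and 462 CPM in the cells with *Ccnd1* reads and 505, 465, 218 and 227 CPM in those without. The difference was small in Y4 and clear in the other mice, with a log2 fold change of 0.89 (SE 0.25, unadjusted p = 0.00905, adjusted p = 1, edgeR). With genes detected as a term it was 0.54 (SE 0.51). The share of cells with an *Idh2* read was 60, 89.5, 65.6 and 50% in the first class of Y4, Y5, Y7 and Y8 and 48.6, 44, 38.1 and 22.8% in the second. Of the 2 classes, the first had the larger share in each mouse. In limma *Idh2* differed by 2.76 in mean log2(RPM + 1) (SE 0.56, adjusted p = 0.0294). Leaving out mouse Y5, Y7 or Y8 ended the call (adjusted p 0.910, 0.144 and 0.468, limma), without Y4 it was 0.00211, and on the paired cells the difference was 2.31 (unadjusted p = 0.00845, adjusted p = 0.903, limma).

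*Sparc*, a matricellular protein that binds collagen (chromosome 11, 55394500 to 55423183), was read in almost every cell, and only limma called a difference in its level. *Sparc* read 2925, 4497, 2705 and 1729 CPM in the cells with *Ccnd1* reads and 2169.6, 2745, 2256 and 1518 CPM in those without, higher in 4 of 4 mice by a log2 fold change of 0.40 (SE 0.14, unadjusted p = 0.0258, adjusted p = 1, edgeR). With the mean number of genes detected as a term of the fit, it was 0.08 (SE 0.26). The share of cells with a *Sparc* read was 97.2% ± 5.56 (SD, n = 4) and 92.7% ± 6.88 (SD, n = 4). In limma *Sparc* differed by 1.27 (SE 0.26, adjusted p = 0.0294). The call was lost without Y4, Y5 or Y7 (adjusted p 0.520, 0.291 and 0.282, limma) and held without Y8 (0.0496), and on the paired cells the difference was 1.37 (unadjusted p = 6.18e-04, adjusted p = 0.903, limma).

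The 10 genes with the smallest unadjusted p in the other direction were lower in 4 of 4 mice and did not pass in edgeR. *Nop16*, a nucleolar protein of ribosome assembly, read 7.39, 33.5, 27.3 and 53.6 CPM in the cells with *Ccnd1* reads of Y4, Y5, Y7 and Y8 and 39.4, 117, 216 and 235 CPM in those without (log2 fold change −2.33, SE 0.47, adjusted p = 0.00293, DESeq2). It was lower in each mouse, and the share of cells with a *Nop16* read was 19.4% ± 6.93 (SD, n = 4) against 36.1% ± 10.3 (SD, n = 4). *Xpo6*, which exports actin from the nucleus, read 107, 106, 100.4 and 34.1 CPM against 173, 311, 227 and 113 CPM (log2 fold change −1.28, SE 0.36), and a read was present in 17% ± 5.97 (SD, n = 4) against 35.9% ± 10.0 (SD, n = 4) of cells. *Myc*, a transcription factor of growth and of ribosome production, read 762, 1333, 1316 and 1389.7 CPM against 1151, 1746, 1682 and 1973 CPM, lower in 4 of 4 mice by a log2 fold change of −0.46 (SE 0.14, unadjusted p = 0.0129, edgeR). Nearly every cell of both classes held a *Myc* read, 86.9% ± 3.34 (SD, n = 4) and 90.3% ± 9.57 (SD, n = 4).

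The remaining genes of this direction did not pass the adjusted threshold of edgeR either. *Csrnp1*, a nuclear protein, read 520.2, 418, 576 and 443 CPM against 729, 941, 941 and 885 CPM, lower in each mouse (log2 fold change −0.84, SE 0.19). *Ddx3y*, a Y-linked RNA helicase, read 123, 173, 177 and 183 CPM against 263, 384, 302 and 385 CPM (log2 fold change −1.02, SE 0.25). *Pum2*, which represses translation of bound transcripts, and *Ugp2*, which makes UDP-glucose for glycogen, had log2 fold changes of −1.46 (SE 0.43) and −1.30 (SE 0.31). *Hmcn2*, an extracellular hemicentin, and *Fam132b*, the gene of erythroferrone, had log2 fold changes of −0.80 (SE 0.18) and −0.55 (SE 0.14). *Spats2l* had one of −1.08 (SE 0.29). On the paired cells the edgeR value was −0.24 (SE 0.36) for *Hmcn2*, −0.49 (SE 0.43) for *Ddx3y* and −0.91 (SE 0.26) for *Fam132b*, and with genes detected as a term it was −0.39 (SE 0.78) for *Pum2*. *Csrnp1*, *Fam132b*, *Spats2l* and *Ugp2* overlap other annotated genes, so that their reads may be shared.

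**Figure D5:**
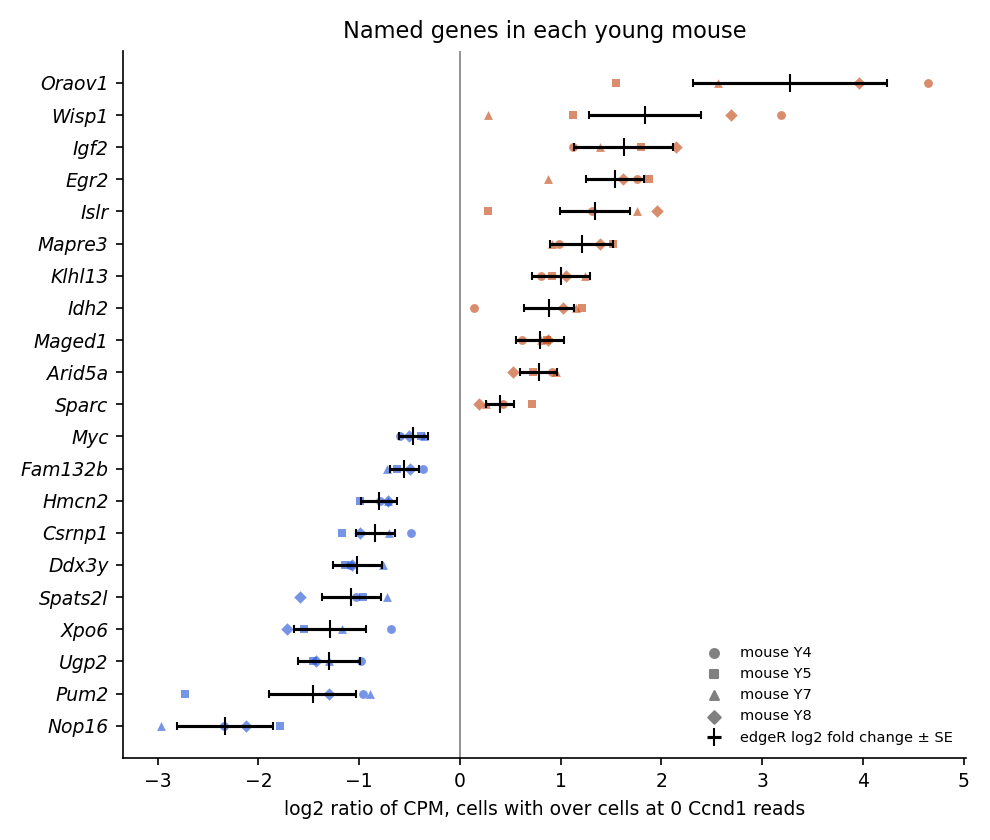
log2 ratio of CPM in cells with over cells at 0 *Ccnd1* reads for the genes of both directions and *Sparc*, in each of 4 young mice (symbols), with edgeR's log2 fold change ± SE (black). All 4 mice lie on one side of 0 for each gene, as the choice of genes required, and none passed edgeR's adjusted threshold.

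Gene groups were described by their counts beside those of all genes, without a test of the groups. Of the extracellular matrix and adhesion genes, 31 of 34 were tested, and their median log2 fold change was 0.32 against −0.15 over all genes. In edgeR 3 had an unadjusted p under 0.05, all higher, against 0.974% higher and 1.41% lower over all genes. The 3 were *Sparc*, the proteoglycan *Bgn* (log2 fold change 0.53, SE 0.18) and the basement membrane collagen *Col4a2* (0.64, SE 0.25). *Bgn* read 832, 762, 724 and 410.1 CPM in the cells with *Ccnd1* reads against 519, 545, 479.9 and 322 CPM in those without. Of these 31 genes, 7 had a higher CPM in 4 of 4 mice and 2 a lower, against 4.91% higher and 7.24% lower over all genes. In limma 9 had an unadjusted p under 0.05, all higher, against 5.86% higher and 1.19% lower over all genes, and on the paired cells 3, against 2.47% of all genes.

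Immediate early and isolation genes are known to be induced in muscle stem cells during dissociation. Of 33 genes, 31 were tested, and 3 were higher and 1 lower at an unadjusted p under 0.05 in edgeR, against 0.974% higher and 1.41% lower over all genes, with a median log2 fold change of 0.17. The higher ones were *Egr2*, *Fosb* (log2 fold change 0.38, SE 0.14) and *Jun* (0.45, SE 0.16), both of the last being subunits of AP-1, and the lower one was the small heat shock protein *Hspb1* (−0.71, SE 0.27). *Jun* read 2109, 1643, 1875 and 1959 CPM against 1719, 1247, 1037 and 1661 CPM. In limma 10 had an unadjusted p under 0.05, all higher, against 5.86% higher over all genes, and on the paired cells 11, all higher, against 2.47%. As a share of all reads of a cell, the group took a median of 3.17, 3.18, 1.72 and 2.07% in the cells with *Ccnd1* reads of Y4, Y5, Y7 and Y8, and 2.65, 3.03, 1.5 and 1.74% in those without. The mean difference was 0.309 ± 0.162 percentage points (SD, n = 4), higher in 4 of 4 mice (exact sign-flip permutation p = 0.125).

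No gene of the signalling groups upstream of *Ccnd1* or of the quiescence group was called at an adjusted threshold by edgeR, DESeq2 or limma, and the counts at an unadjusted p under 0.05 differed between edgeR and limma. Of 10 mitogen receptors tested of 12, 2 were lower at an unadjusted p under 0.05 in edgeR, the receptors *Fgfr1* (−0.56, SE 0.23) and *Osmr* (−0.76, SE 0.28), against 1.41% lower over all genes, whereas limma had 1 higher and 0 lower. *Fgfr1* read 794, 635, 796 and 1094 CPM against 1342, 1148, 1405 and 939.9 CPM, lower in 3 of 4 mice. Among 10 Notch pathway genes of 15 and 12 quiescence genes of 12, 1 was higher in edgeR, against 0.974% higher over all genes. It was the same gene in both groups, the Notch effector *Heyl* (0.64, SE 0.27), with 653, 453, 336 and 203 CPM against 261, 422, 228 and 134 CPM. In limma 1 Notch pathway gene and 3 quiescence genes were higher, against 5.86% of all genes, and 0 and 1 on the paired cells, against 2.47%. Of 13 Wnt pathway genes, 14 YAP and TEAD genes and 14 feedback genes of MAP kinase signalling, 0 had an unadjusted p under 0.05 in edgeR, while limma had 0, 1 (higher) and 1 (lower). Their median log2 fold changes were −0.35, −0.15 and −0.02.

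Of 14 muscle stem cell markers, 0 had an unadjusted p under 0.05 in edgeR and 5 in limma, all higher, against 5.86% higher over all genes, and on the paired cells 3, against 2.47%. Their median difference in limma was 0.50, against 0.10 over all genes, and among the 5 was the cadherin *Cdh15* (1.39 in mean log2(RPM + 1), SE 0.50, adjusted p = 0.621, limma). Of 6 tested genes of myogenic activation and differentiation, edgeR had 0 and limma 1, *Myod1*, and *Myog*, the factor of differentiating myocytes, was read in 0 of 253 young cells. Of 77 cytosolic ribosomal protein genes, 1 was higher at an unadjusted p under 0.05 in edgeR, *Rpl15* (0.82, SE 0.31), against 0.974% over all genes. The median of the 77 genes was 0.01. Their share of all reads of a cell had a mean of 4.53% with and 4.45% without *Ccnd1* reads, higher in 1 of 4 mice. The 10 further genes of stem cell state given above, from *Pax7* to *Cebpb*, had a median of 0.02, with 0 at an unadjusted p under 0.05 in edgeR and 1 in limma, *Myod1*.

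Markers of endothelial, immune, myofibre, Schwann and tendon cells were low, whereas a few genes of the fibro-adipogenic and pericyte lists were read at higher levels, and none of these markers passed a test. The summed level of 10 endothelial markers was 0 to 19.4 CPM with and 1.35 to 29.4 CPM without *Ccnd1* reads, and 7 of them had no read in any young cell. The 10 immune markers summed to 3.6 to 68.3 and 3.17 to 51.8 CPM, the 12 myofibre markers to 0 to 82.8 and 16.8 to 62.9 CPM, and the 6 markers of Schwann cells and tenocytes to 0.882 to 95.9 and 0.565 to 34.5 CPM. The 9 fibro-adipogenic markers summed to 626 to 1226 and 443 to 839 CPM, which came from *Dpt*, read in 83.8% of young cells, whereas *Pdgfra*, *Dcn*, *Lum*, *Mfap5* and *Pi16* had no read. The 8 markers of pericytes and smooth muscle summed to 164 to 488 and 111 to 348 CPM, with the actin gene *Acta2* read in 33 and 36 cells. Of the 55 genes in these lists 13 passed the filter, and 0 had an unadjusted p under 0.05 in edgeR or in limma.

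The change with *Ccnd1* reads was also compared with that in old cells. Only O1 had at least 5 cells in each class, 6 with and 50 without *Ccnd1* reads. O1 was on lane 2, as was Y7 alone of the young mice, so age and lane cannot be fully told apart. Of 9754 genes edgeR called 17 (0.174%) for a difference between the young mice and O1, 2 of them more positive in O1. For 5 of the 17 the 6 cells of O1 held no read at all. With O5, which had 4 cells with *Ccnd1* reads, added, edgeR called 0 of 9546 genes, with 1105 at an unadjusted p under 0.05, so the 17 calls rested on 1 old mouse and 6 cells. As O1 was the one old mouse in that fit, the spread came from the young mice alone, and without any 1 young mouse 0 to 1 genes were called.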

How the data were processed

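RNA counts of 253 young and 124 old cells were analysed. By the paper's methods, the authors aligned RNA reads with HiSat2, quantitated genes in SeqMonk and kept cells with at least 1000 genes and 100000 reads. The column names of the deposited table show trimmed reads and GRCm38, as do the submitters' processing notes for the build, and its values are whole numbers with unequal totals, taken as raw counts. Versions, gene annotation and whether strand was used are not given in the sources used here. A young cell had 102044 to 626142 reads.

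Reads were summed per class and mouse and tested in edgeR 4.0.16 (TMM, filterByExpr with a minimum count of 10, quasi-likelihood test, mouse as block, Benjamini-Hochberg threshold 0.05), with *Ccnd1* left out. The classes pair because they come from the same animal, and cells were never used as replicates. DESeq2 1.42.0 and limma 3.58.1 on mean log2(RPM + 1) were alternatives, in R 4.3.3. Medians were compared over mice with an exact sign-flip test. Python 3.11.15 with pandas 2.3.3, numpy 2.4.6 and scipy 1.17.1 did the rest. Of the fits, only that of edgeR was also run on simulated data, and the outcome is not reported here.

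The classes, genes and lists were chosen with earlier results of these data known. Named genes were those of the lists of cyclin D partners, CDK inhibitors and stem cell state, 10 per direction by smallest unadjusted p among genes on one side in 4 of 4 mice and read in at least 20% of young cells, and members of other lists. *Sparc*, *Mcrs1* and *Rbm27* were named after their values were seen. The fit without the 10 cells in which *Ccnd1* reads did not outnumber those of *Oraov1* was also chosen after seeing the data. So were the further limma fits and the fit with both old mice. Of the listed symbols 4 were found under an older name and 1 was not found. Methylation data and the second experiment were not analysed here.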

Additional observations from a re-analysis of the deposited data

Results flagged for a closer look

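The share of young cells with a *Ccnd1* read was 24% in Y8, set apart from 41.7 to 43.2% in the other 3 young mice by 0.918 of the whole range. For *Myf5*, Y8 had a log2 ratio of CPM between the classes of −1.94, apart from the other mice by 0.873 of the range, and for *Spry1* one of −1.33, apart by 0.833. For *Vcam1*, Y4 had a log2 ratio of 1.28, apart by 0.89. In all, 4 of 44 such groups of 4 mice passed Dixon's 95% limit, which chance passes in about 1 of 20 groups.

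edgeR called 17 genes for a difference between the young mice and O1 in the change with *Ccnd1* reads. O1 is 1 mouse with 6 cells with *Ccnd1* reads, so the spread came from the young mice alone, and 0 to 1 genes were called without any 1 of them and 0 with O5 added. Among the 17 was *Hmcn2*, whose log2 change was 3.21 higher in O1 (adjusted p = 0.0358, edgeR). With O5 added, the difference for *Hmcn2* was 1.94 (adjusted p = 0.336, edgeR).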

How the results depend on the processing

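edgeR called 0 genes also with RLE size factors, without or with a stricter filter, and after thinning (with the classes kept or set anew). It also called 0 on cells paired on genes detected, with genes detected as a covariate and with a class limit of 10 RPM. Leaving out the 10 cells in which *Ccnd1* reads did not outnumber those of *Oraov1* gave 0, with other cells holding reads of both genes kept. Without each mouse in turn edgeR called 0, and the fit without Y7 is the one within lane 3. Without the replicate block for the mouse, so not paired, it also called 0. DESeq2 called 162 genes, 52 higher and 110 lower. limma called 3, all higher, also after thinning, and 1 to 2, all higher, without each mouse. The difference between young mice and O1 gave 17 genes, 0 to 1 without each young mouse (0 without Y4, Y7 or Y8 and 1 without Y5) and 0 with both old mice. Leaving out O1 was not run, since no old mouse with 5 cells of each class then remains. *Mmp2* had a log2 fold change of 2.34 (SE 1.68, adjusted p = 0.949, edgeR) with genes detected as a covariate against −2.04. Of 746 values of 41 named genes under the alternatives, 686 kept their direction, and the 59 other changes of sign lay within the error. The median difference in genes detected was 152 to 298 without each mouse and that in reads 5293 to 32768, and the mean share of cells with *Ccnd1* reads 36.3 to 42.7%. The median standard error over all genes in edgeR was 1.34, and 4 mice limit every exact test to p = 0.125.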
